A study of Mus musculus with 6 samples.

Results

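The 9 genes for regulators of G protein signalling described here were chosen by name: Rgs1, Rgs2, Rgs3, Rgs10, Rgs12, Rgs14, Rgs16, Rgs18 and Rgs19. A probe that names 1 gene measured 8 of these 9, out of 19938 genes measured in this way. Rgs10 was not analysed here. Each gene is given by its brightest probe. The choice of genes was made with the contrast between the groups already known, so the members' differences between the groups are given as a description. Where counts of members past a threshold are printed, nothing is read from them. The cells were mouse pre-B cells transformed by BCR-ABL1, the fusion kinase of Philadelphia chromosome-positive acute lymphoblastic leukaemia, from the FvB/N strain and with floxed alleles of both Spry1 and Spry2. Control cells (3 arrays) carried the vector PMIP-ERT2 and Cre-ERT2 cells (3 arrays) the vector PMIP-CRE-ERT2, in which tamoxifen switches on the recombinase Cre. Both groups were selected with puromycin and both received 0.5 µM 4-hydroxytamoxifen for 2 days, so the drug is shared and the loss of the Sprouty genes comes together with active Cre. Active Cre in cells without floxed Sprouty alleles was not analysed here. Nothing in the labels ties the replicates to separate cultures, so every p-value here measures how these samples vary, and that variation may be technical.

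A G protein-coupled receptor signals by loading GTP onto a G alpha subunit, which then parts from its beta and gamma partners. RGS proteins end that signal: their shared RGS domain speeds up the hydrolysis of GTP by G alpha subunits of the Gi and Gq classes. In B lymphocytes they set how strongly and how long a cell answers chemokines, and several of their genes are themselves switched on by receptor signals. The family is divided into subfamilies. The members of the R4 subfamily (here Rgs1, Rgs2, Rgs3, Rgs16 and Rgs18) consist of little beyond the RGS domain, with Rgs3 also made in longer forms. Those of the R12 subfamily (Rgs10, Rgs12 and Rgs14) include the larger scaffolds Rgs12 and Rgs14, and Rgs19 belongs to the RZ subfamily.

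Both floxed genes, which encode inhibitors of the RAS and ERK pathway, were lower in Cre-ERT2 arrays, Spry2 by a log2 difference of -1.06 and Spry1 by -0.84 (limma adjusted p = 0.00162 and 0.00462). Levels throughout are deposited log2 signals, and a difference is the Cre-ERT2 mean minus the control mean on that scale. The 13 measured pre-B cell markers were all above the median signal of the genes measured, with array means of 12.18 to 12.35. Of these, Rag2 of the V(D)J recombinase fell (-0.69), and the highest difference was that of Dntt (0.17). The 20 measured mast cell markers were not alike between arrays: their mean was 6.99 to 7.44 in control and 7.56 to 8.52 in Cre-ERT2 arrays, with array 1 the highest of each group (exact two-sided permutation p = 0.1, the smallest that 3 arrays against 3 allow). The mast cell list was chosen with earlier results of these data known, so nothing is read from this p-value. Of these 20 markers 3 rose and 0 fell past an adjusted p of 0.05 (limma), where 0.797% of all genes rose and 1.12% fell. The differences of the markers ran from -0.05 (Mrgprb1) to 2.45 (the protease gene Mcpt2). Array medians of log2 signal ran from 7.73 to 7.81. In bulk RNA, fewer cells of a type and less RNA per cell cannot be told apart.

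Promoter windows from 250 bases before to 50 after an annotated start were held in the RefSeq table (GRCm38.p6) for 6 of the 9 members, 10 windows in all. Rgs1, Rgs14 and Rgs18 are the members without one. The Rgs2 and Rgs3 windows are printed because, of the genes with a window, these 2 were higher by their brightest probe in every Cre-ERT2 array than in any control array. Each window was searched on both strands for TGACG, the half-site of the cAMP response element, for TGANTCA, the AP-1 site, and for GCGNGGGCG, the site of EGR factors. Matches are in capitals. The Rgs2 window is chr1:144004100-144004399 on the minus strand, and the Rgs3 windows are chr4:62559597-62559896 and chr4:62619422-62619721 on the plus strand.
Rgs2: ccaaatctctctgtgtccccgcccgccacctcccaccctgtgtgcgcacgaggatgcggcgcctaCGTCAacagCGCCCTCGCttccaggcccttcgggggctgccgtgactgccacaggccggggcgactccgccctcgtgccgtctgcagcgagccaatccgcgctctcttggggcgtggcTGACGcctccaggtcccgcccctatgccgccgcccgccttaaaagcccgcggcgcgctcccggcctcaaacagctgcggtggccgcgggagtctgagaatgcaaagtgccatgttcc
Rgs3, upstream start: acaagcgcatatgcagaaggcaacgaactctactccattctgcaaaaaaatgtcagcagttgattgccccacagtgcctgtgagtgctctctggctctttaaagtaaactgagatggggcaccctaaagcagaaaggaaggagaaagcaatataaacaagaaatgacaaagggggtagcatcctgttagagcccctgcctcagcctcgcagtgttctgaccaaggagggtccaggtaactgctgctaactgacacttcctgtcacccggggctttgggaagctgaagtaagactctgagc
Rgs3, downstream start: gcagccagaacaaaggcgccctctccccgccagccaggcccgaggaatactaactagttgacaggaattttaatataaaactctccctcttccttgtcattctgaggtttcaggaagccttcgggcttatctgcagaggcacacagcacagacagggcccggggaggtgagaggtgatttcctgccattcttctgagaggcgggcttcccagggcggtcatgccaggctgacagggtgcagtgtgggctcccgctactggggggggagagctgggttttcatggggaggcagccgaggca
The Rgs2 window held 2 matches to the cAMP half-site, at positions -185 and -67 from the start, and 1 match to the EGR site at position -176, with no overlap between them. Neither Rgs3 window held a match. A half-site occurred in 20.8% of all 32851 promoter windows of this length, the AP-1 site in 7.81% and the EGR site in 5.55%. Among the other members, 1 of 2 Rgs12 windows held a half-site and an AP-1 site, 1 of 3 Rgs19 windows held an EGR site, and the Rgs16 and Rgs10 windows held none. A match is a run of letters and does not show that a factor binds there.

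Rgs18, an R4 gene best known from platelets and their precursors, had the widest difference of the 8 genes. Its log2 signal was 9.24, 9.76 and 9.51 in the control arrays 1, 2 and 3, against 8.91, 8.23 and 8.36 in Cre-ERT2 1, 2 and 3. Every Cre-ERT2 array was below every control array, with a gap of 0.33 between the nearest arrays, control 1 and Cre-ERT2 1. The difference was -1.001 ± 0.18 (SE from the model over all genes, 3 arrays a group). It was also the gene with the largest spread within groups, with SDs of 0.26 in control and 0.36 in Cre-ERT2 arrays. Leaving out each array in turn gave differences from -1.21 to -0.87.

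Rgs1, an R4 gene of activated B cells that dampens their migration towards chemokines, was higher in Cre-ERT2 arrays. Its signal was 6.54, 6.77 and 6.48 in the control arrays 1, 2 and 3, against 7.33, 7.01 and 7.03 in Cre-ERT2 1, 2 and 3. The groups did not overlap, with a gap of 0.25 between control 2 and Cre-ERT2 2. The difference was 0.53 ± 0.10 (SE, n = 3 each), which is 1.44-fold. Its mean signal stood at percentile 26.8 of all genes, and it was the only member below the 40th percentile.

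Rgs3 and Rgs2 differed less. The brighter of 2 Rgs3 probes read 8.73, 8.61 and 8.57 in the control arrays 1, 2 and 3, against 8.84 in each Cre-ERT2 array, a difference of 0.20 ± 0.06 (SE). The 3 Cre-ERT2 arrays were thus nearly equal, and all were above the highest control array. The second Rgs3 probe (10505326) read 8.18, 8.01 and 8.01 in the control group, against 8.16, 8.01 and 8.14 in Cre-ERT2 arrays, a difference of 0.04 with overlapping groups, so the 2 probes of this gene disagree. The transcript forms that each probe reads were not analysed here. Rgs2, an R4 protein that acts foremost on Gq, read 9.55, 9.46 and 9.47 in the control group, against 9.72, 9.65 and 9.60 in Cre-ERT2 arrays. Its groups were apart by 0.05, and the difference was 0.17 ± 0.06 (SE). The mean of both Rgs3 probes gave 0.12.

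Rgs16, an R4 gene induced by activating signals in lymphocytes, read 8.74, 8.52 and 8.54 in the control group, against 8.90, 8.54 and 8.73 in Cre-ERT2 arrays. These groups overlapped, since control 1 was level with Cre-ERT2 3 and above Cre-ERT2 2. The difference was 0.13 ± 0.10 (SE).

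**Figure D1:**
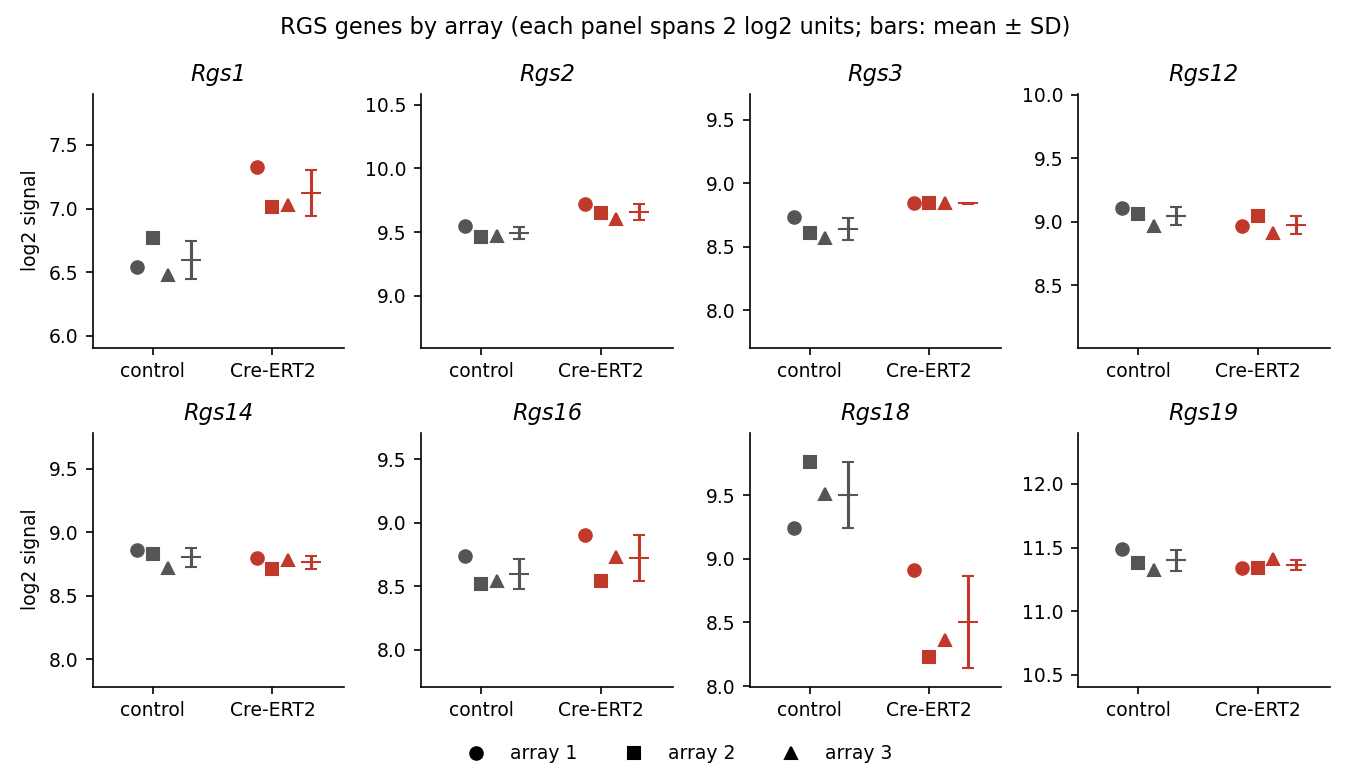
Log2 signal of the 8 measured RGS genes in each array (y axis, 2 log2 units in every panel) for control and Cre-ERT2 cells (x axis). Symbols give the array number within a group, and bars the mean ± SD of 3 arrays. Rgs18 is lower and Rgs1 higher in all Cre-ERT2 arrays, while Rgs12, Rgs14, Rgs16 and Rgs19 overlap between groups.

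The 3 members outside the R4 subfamily lay close to 0. Rgs12, a scaffold that also binds RAS and RAF proteins, read 9.11, 9.06 and 8.97 in the control group, against 8.97, 9.05 and 8.91 in Cre-ERT2 arrays (difference -0.07 ± 0.06 SE). Rgs14, its relative with the same pair of RAS-binding domains, read 8.86, 8.83 and 8.72 in the control group, against 8.80, 8.71 and 8.78 in Cre-ERT2 arrays (difference -0.04 ± 0.06 SE). Rgs19, first described as GAIP, a partner of G alpha i3, read 11.49, 11.38 and 11.32 in the control group, against 11.34, 11.34 and 11.41 in Cre-ERT2 arrays (difference -0.04 ± 0.06 SE). Groups overlapped for all 3. The 5 R4 members had differences of 0.13 to 1.001 in absolute size and these 3 had 0.04 to 0.07. The 5 measured R4 genes that are not members had 0.03 to 0.30, and the second Rgs3 probe 0.04, so small differences were found among R4 genes too. The subfamilies were not tested against each other.

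In the whole-table fit, 2 of the 8 members were past an adjusted p of 0.05, Rgs1 higher and Rgs18 lower, where 1.92% of all genes were past it (0.797% higher, 1.12% lower). The groups did not overlap for 4 of the 8, where 24.8% of all genes had groups apart. Rgs1, Rgs2 and Rgs3 were higher (6.59% of all genes) and Rgs18 was lower (18.2% of all genes). The call of Rgs1 was lost without any 1 of the 6 arrays, and that of Rgs18 without any but Cre-ERT2 1. Because the members were chosen with this contrast known, nothing is read from these counts. The median difference of the 8 was 0.05, beside -0.03 for all genes.

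The mast cell markers moved with the groups, and the array values of the members stand beside them as follows. Within the control group Rgs18 was highest in control 2, which had the lowest marker mean (6.99), and lowest in control 1, which had the highest (7.44). Within the Cre-ERT2 group the order was the other way round, since Rgs18 was highest in Cre-ERT2 1 (marker mean 8.52) and lowest in Cre-ERT2 2 (7.56). Rgs16 was highest in array 1 and lowest in array 2 of both groups, as was the marker mean. Rgs1 was highest in Cre-ERT2 1 but, among controls, highest in control 2. With the marker mean as a covariate the differences were -1.31 for Rgs18, 0.37 for Rgs1, 0.16 for Rgs3 and 0.09 for Rgs2, and that of Rgs16 changed sign, to -0.19. In that fit 0 of the 8 members were past the threshold (limma), where 69 of all genes were higher and 48 lower. At an unadjusted p under 0.05 were 2 of the 8, and the count over all genes at that level was not taken in this fit. Every Cre-ERT2 array had a higher marker mean than any control array, so marker mean and group cannot be fully told apart. Here and below, a call lost with this covariate can therefore not be assigned to mast cell RNA. The part of mast cell RNA in these differences was not tested further.

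**Figure D2:**
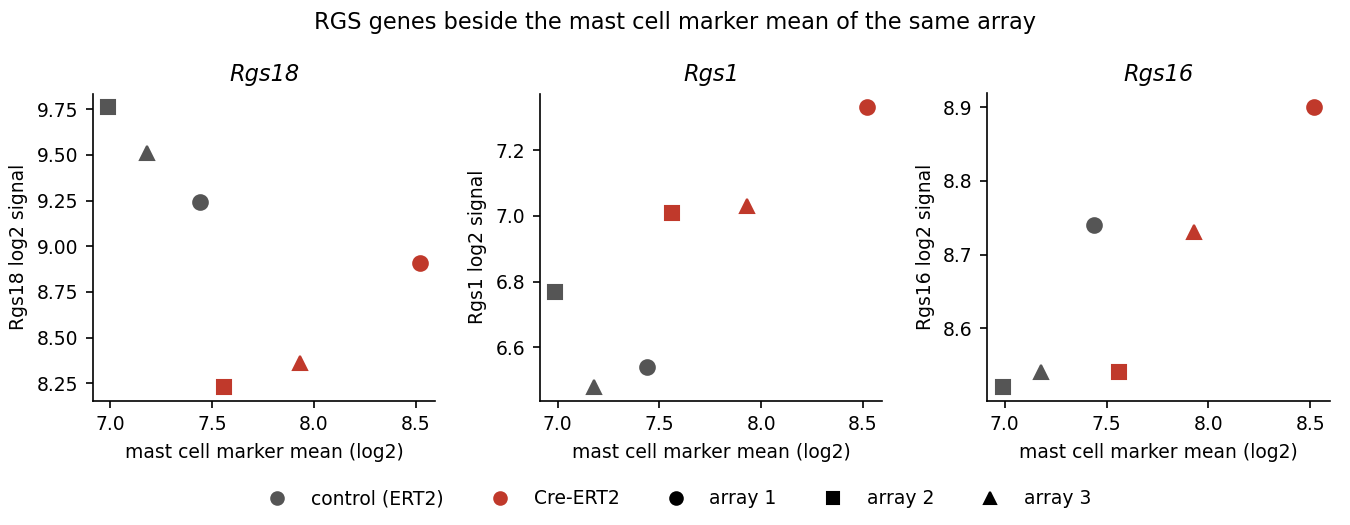
Log2 signal of Rgs18, Rgs1 and Rgs16 (y axes, each on its own scale) against the mean log2 signal of 20 mast cell markers in the same array (x axis). Each point is an array; grey is control, red is Cre-ERT2. Rgs18 is lower in all 3 Cre-ERT2 arrays, which all have higher marker means than the controls, and Rgs16 is highest where the marker mean is highest, in Cre-ERT2 1.

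Markers of the other cell types differed little as means. The 9 measured megakaryocyte and platelet markers, the cells in which Rgs18 is best known, had array means of 7.14 to 7.26 in control and 7.13 to 7.20 in Cre-ERT2 arrays. None of the 9 passed the threshold (limma; adjusted p of 0.0911 for Itga2b, the lowest), and their differences ran from -0.36 (Ppbp) to 0.27 (Itga2b). The 14 myeloid markers had array means of 7.01 to 7.08 in control and 7.01 to 7.13 in Cre-ERT2 arrays, from Mpo (-0.18) to the lysozyme gene Lyz2 (1.07, adjusted p = 0.0651). The means of T cell, NK cell and erythroid markers differed by 0.02, -0.04 and -0.05, with members from -0.22 (Cd4) to 0.20 (Cd5), from -0.33 (Klrb1c, the 1 that fell) to 0.12 (Klrk1) and from -0.10 (Klf1 and Slc4a1) to 0.01 (Alas2).

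Rgs1, Rgs2 and Rgs18 belong to 1 run of Rgs genes on mouse chromosome 1. In the gene table of GRCm38.p6 the protein-coding genes Rgs2, Rgs13, Rgs1, Rgs21 and Rgs18 follow one another in this order with no other protein-coding gene between them. Along this run the differences were 0.17, -0.05, 0.53, -0.07 and -1.001, so the 2 members with the widest differences, of opposite sign, are separated only by Rgs21. Rgs13 (control mean 4.42) and Rgs21 (4.95) were far below the lower quartile of the arrays (6.46 to 6.55). Elsewhere on the same chromosome Rgs8 and Rgs16 are neighbours, at -0.30 and 0.13 (the groups of Rgs16 overlapped), as are Rgs5 and Rgs4, at -0.03 and -0.18.

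**Figure D3:**
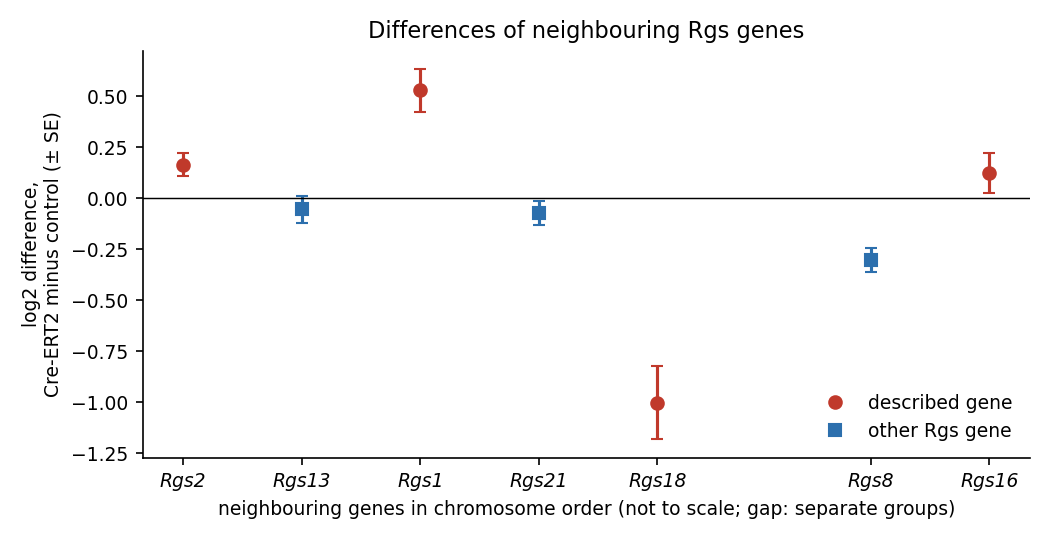
Log2 difference, Cre-ERT2 minus control (y axis, ± SE of the model, 3 arrays a group), of neighbouring Rgs genes in chromosome order (x axis, not to scale). Rgs1 (0.53) and Rgs18 (-1.001) have differences of opposite sign within the run of 5 genes; the pair Rgs8 (-0.30) and Rgs16 (0.13) is drawn apart from it, and the pair without a described gene, Rgs5 and Rgs4, is not drawn.

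Of the 12 Rgs genes that are not members, 1 fell and 0 rose past the threshold (1 at an unadjusted p under 0.05), where 1.12% of all genes fell and 0.797% rose. At an unadjusted p under 0.05 (limma) were 3605 of all 19938 genes. Rgs8, an R4 gene best known from neurons, read 8.30, 8.34 and 8.21 in the control group, against 7.97, 7.93 and 8.05 in Cre-ERT2 arrays. All Cre-ERT2 arrays were below all control arrays. The difference was -0.30 ± 0.06 (SE, n = 3 each; limma adjusted p = 0.0460), just under the threshold. Without any 1 of the 6 arrays the adjusted p was 0.0750 to 0.157, and with the mast cell covariate the difference was -0.31 with an adjusted p of 0.323. The next lowest p-values were those of Rgs22 (-0.12), Rgs4 (-0.18), Rgs6 (-0.12) and Rgs21 (-0.07), whose adjusted p-values were 0.390 to 0.596. Of these 12 genes 10 were below the 40th percentile of signal, and 11 of the 12 differences were negative (median -0.06, against -0.03 for all genes). Negative differences were also the more common over all genes, 12581 of 19938.

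**Figure D4:**
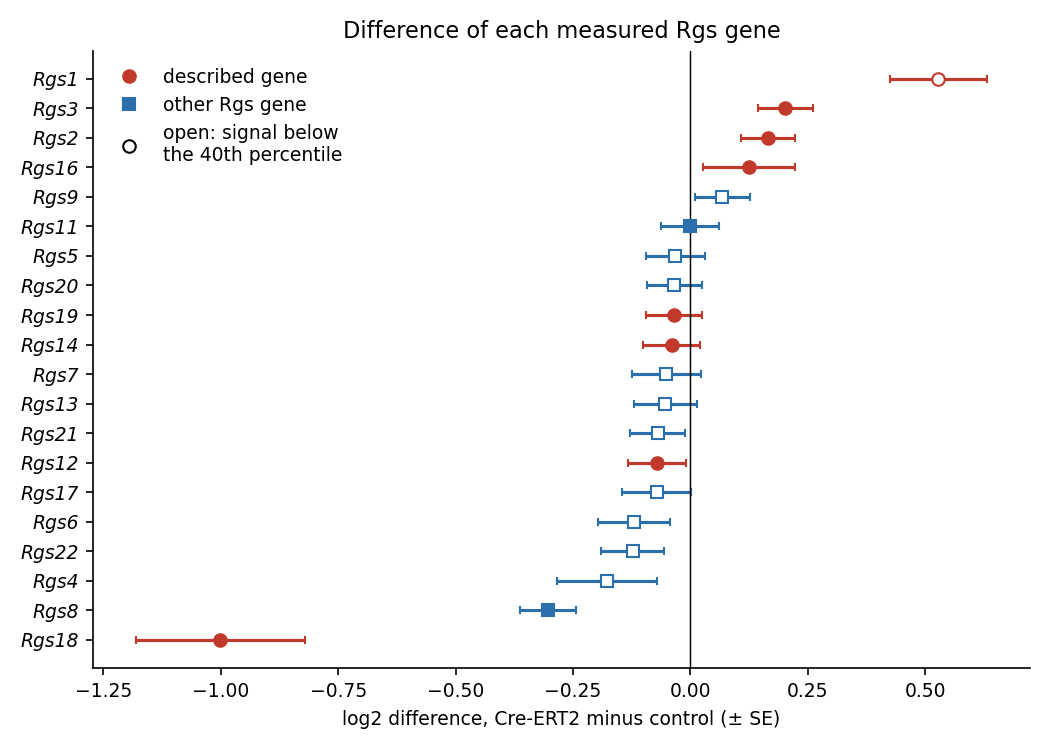
Log2 difference, Cre-ERT2 minus control (x axis, ± SE of the model, 3 arrays a group), of the 20 measured Rgs genes (y axis), with the described genes as red circles and the others as blue squares; open symbols are genes whose mean signal is under the 40th percentile. Rgs18 (-1.001) and Rgs1 (0.53) stand at the ends, and most other genes lie within 0.2 of 0.

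The genes around the RGS proteins are taken by their place in the pathway. The counts past the threshold in these lists stand beside 0.797% of all genes higher and 1.12% lower. Counts at an unadjusted p under 0.05 (limma) stand beside 3605 of all 19938 genes. Such counts were 2 of 15 for G alpha genes, 2 of 10 for other regulators, 13 of 56 for receptors and 10 of 36 for effectors. Among 14 other genes with an RGS-homology domain, which include the receptor kinases, the axins and the RhoGEFs, 0 passed (limma; 1 at an unadjusted p under 0.05). Snx25, a sorting nexin, had the lowest p (-0.20, adjusted p = 0.102), followed by Grk4 (0.15), Arhgef12 (0.13) and Arhgef1 (0.10), a RhoGEF coupled to Gα13 in lymphocytes. The median difference was 0.01.

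Among 15 G alpha genes, 1 rose and 0 fell. Gna15, which encodes a Gq-class subunit of blood cells that couples to a wide range of receptors, read 11.11, 10.90 and 10.87 in the control group, against 11.45, 11.62 and 11.62 in Cre-ERT2 arrays. The groups were apart by 0.34. It rose by 0.60 ± 0.08 (SE; limma adjusted p = 0.0128), and by 0.65 with the mast cell covariate (adjusted p = 0.0742). The call was lost without control 2, control 3 or Cre-ERT2 3 (adjusted p at most 0.0782). The Gi genes, whose products are the main RGS substrates, did not pass: Gnai2 was at 12.84 in both groups (difference -0.00 ± 0.05 SE), and Gnai3 had a difference of -0.13 (adjusted p = 0.226). Gnai1 was at -0.095 ± 0.24 (SE; limma adjusted p = 0.884). Its 95% interval was wide, from -0.644 to 0.453, so its difference is poorly determined. Gnai1 and Gnai2 are named in addition to the genes of lowest p. Gna12 (0.16), Gnaz (-0.10) and Gna14 (0.20) did not pass either. The median was -0.03.

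Of 17 beta and gamma subunit genes 0 passed (limma; 1 at an unadjusted p under 0.05), with a median of 0.01. Gngt2 (0.20, adjusted p = 0.145), Gng10 (-0.14), Gng5 (-0.09) and Gng11 (-0.19) had the lowest p-values. Of 10 other regulators of G alpha, Gpsm2 fell, which encodes a GoLoco protein that binds Gi and orients the mitotic spindle (-0.31 ± 0.06 SE; limma adjusted p = 0.0374). Its signal was 10.11, 9.97 and 10.02 in the control group, against 9.75, 9.73 and 9.70 in Cre-ERT2 arrays, with no overlap. Its adjusted p was 0.0569 to 0.184 without any 1 array and 0.182 with the mast cell covariate. The arrestin genes Arrb1 (0.19) and Arrb2 (0.10), Gpsm3 (-0.12) and Rap1gap (0.07) did not pass.

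Among 56 G protein-coupled receptor genes 2 rose and 2 fell, with a median of 0.03. Gpr18, a lymphocyte receptor for lipid ligands, read 10.71, 10.62 and 10.58 in the control group, against 11.03, 11.14 and 11.20 in Cre-ERT2 arrays (0.49 ± 0.06 SE; limma adjusted p = 0.0124). Ccr7, the receptor that guides lymphocytes to lymph nodes, read 9.78, 9.61 and 9.60 in the control group, against 10.12, 9.92 and 10.09 in Cre-ERT2 arrays (0.38 ± 0.07 SE; limma adjusted p = 0.0463). P2ry13, a receptor for ADP, fell from 9.42, 8.95 and 9.06 to 8.63, 8.47 and 8.57 (-0.58 ± 0.11 SE; limma adjusted p = 0.0416). P2ry10, a lysophospholipid receptor, fell from 9.77, 9.90 and 9.70 to 9.22, 9.42 and 9.29 (-0.48 ± 0.07 SE; limma adjusted p = 0.0239). All 4 had groups apart, as had 14 of the 56 receptor genes in all, beside 24.8% of all genes.

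Each of these 4 receptor calls was lost without at least 3 of the 6 arrays, control 2, control 3 and Cre-ERT2 3 among them, with the highest adjusted p at 0.0770 for Gpr18, 0.197 for Ccr7, 0.171 for P2ry13 and 0.138 for P2ry10. With the mast cell covariate the differences were 0.54, 0.20, -0.84 and -0.31, and the adjusted p was 0.0719, 0.522, 0.0470 and 0.324. The following receptors missed the threshold with larger differences: C3ar1, for complement C3a (1.13, adjusted p = 0.0581), Ptgir, for prostacyclin (0.97, adjusted p = 0.0539), and S1pr3, for sphingosine 1-phosphate (0.63, adjusted p = 0.0569). Like the mast cell marker mean, their values were highest in array 1 and lowest in array 2 of the Cre-ERT2 group, and with the covariate they were at 0.24, 0.20 and 0.22. Cxcr4, the chemokine receptor that holds pre-B cells in the marrow (chosen after its value was seen), was at -0.04 ± 0.05 (SE).

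Among 36 effector genes 3 rose and 0 fell. Itpr2, an IP3 receptor that releases calcium downstream of Gq, read 10.94, 11.06 and 10.93 in the control group, against 11.41, 11.53 and 11.54 in Cre-ERT2 arrays (0.51 ± 0.06 SE; limma adjusted p = 0.00869). Adcy6, an adenylyl cyclase inhibited by Gi, read 9.11, 8.71 and 8.76 in the control group, against 9.66, 9.49 and 9.58 in Cre-ERT2 arrays (0.72 ± 0.10 SE; limma adjusted p = 0.0180). Pik3r6, a subunit of the PI3 kinase that beta-gamma activates, read 10.11, 10.01 and 9.92 in the control group, against 10.26, 10.41 and 10.42 in Cre-ERT2 arrays (0.35 ± 0.07 SE; limma adjusted p = 0.0491). Groups were apart for these 3, and for 13 of the 36 in all, beside 24.8% of all genes.

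Without single arrays the adjusted p reached 0.0646 for Itpr2 (lost without control 3 or Cre-ERT2 3), 0.0943 for Adcy6 (lost without control 2, control 3, Cre-ERT2 1 or Cre-ERT2 3) and 0.210 for Pik3r6 (lost without any 1 array). With the mast cell covariate Itpr2 stayed past the threshold (0.65, adjusted p = 0.0240), while Adcy6 was at 0.48 (adjusted p = 0.219) and Pik3r6 at 0.42 (adjusted p = 0.205). Prex1 (0.34, adjusted p = 0.0634), a RAC exchange factor driven by beta-gamma, and the phospholipase C genes Plcb2 (0.30) and Plcb3 (0.23) and the cyclase gene Adcy7 (0.23) did not pass. The list median was 0.04.

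**Figure D5:**
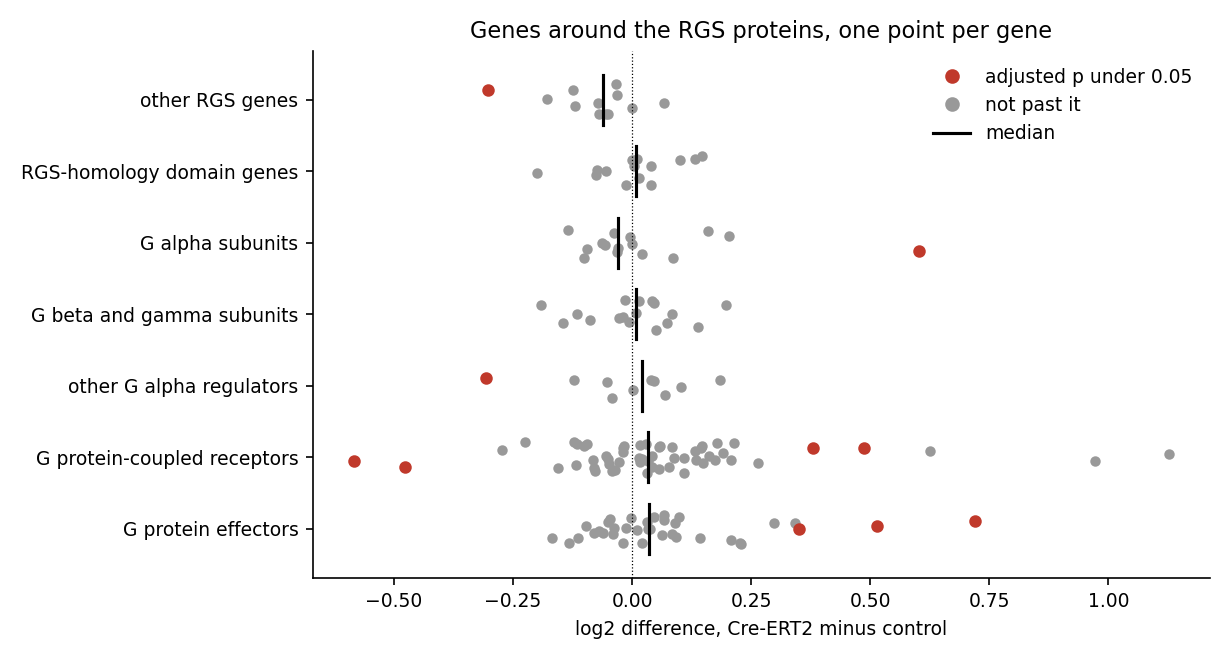
Log2 difference, Cre-ERT2 minus control (x axis), of the genes in 7 lists around the RGS proteins (y axis), 1 point per gene with red for an adjusted p under 0.05 and black bars for list medians. The medians lie between -0.06 and 0.04, and the red points are single genes such as Gna15 (0.60), Adcy6 (0.72) and P2ry13 (-0.58).

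Mean-centred profiles across the 6 arrays were searched among the 11963 genes at or above the 40th percentile of mean signal. Rgs1 itself was below that percentile, so genes as dim as Rgs1 were not searched. Nearest to Rgs18 in this search were Spry1 (root mean square difference 0.25 log2 units), the olfactory receptor gene Olfr373 (0.27) and the CD20 gene Ms4a1 (0.29), each lower in every Cre-ERT2 array. Nearest to Rgs1 were the mucin gene Muc13 (0.07), the small Cajal body-specific RNA gene Scarna13 (0.08) and Ccdc88b (0.08), each higher in every Cre-ERT2 array. Rgs18 itself varied within the groups, as in Cre-ERT2 1 (8.91) against Cre-ERT2 2 (8.23). All profiles come from the same 6 arrays and 2 groups. Rgs18 and Rgs1 were taken as the members with the most negative and the most positive difference. A near profile therefore shares that difference by the way it was picked, and regulation in common was not tested.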

How the data were processed

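RNA from 6 mouse pre-B cell samples was measured on Affymetrix arrays. The authors deposited log2 expression values from 2.47 to 14.81 for 35556 probes. The submitters' processing notes list RMA and Partek 6.5 with no role; a genome build was not given in the sources used here. Probes were named through the platform annotation; 21789 name 1 gene, and 1621 with several genes and 12146 unnamed here were left out. The brightest probe stood for the gene. Of these probes 21698 matched a GRCm38.p6 gene by Entrez identifier.

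The test was lmFit and eBayes from limma 3.58.1 (R 4.3.3), Benjamini-Hochberg adjustment over 19938 genes and a threshold of 0.05. The number of arrays limits the precision (median SE 0.0656). The fit was tested on simulated data. The members, the 7 pathway lists (175 entries, 160 measured; others not analysed here) and the 7 marker lists were chosen with earlier results of these data known. Named were all members, list genes past the threshold, up to 4 more per list by lowest p, the extremes of each marker list, neighbouring Rgs genes, and the 3 nearest profiles. The profile search covered genes at or above the 40th percentile of mean signal. Cxcr4, Gnai1 and Gnai2 were named besides these. Alternatives were a filter on dim genes, other probe summaries, scalings, variance models and thresholds, array weights, a replicate block, a mast cell covariate and each array left out. Deviations from group means of same-numbered arrays correlated at 0.268, 0.336 and 0.028 for the numbers 1, 2 and 3. For arrays of different numbers the correlations ran from -0.328 to 0.044, below the values for the numbers 1 and 2. The main fit did not pair the samples by number. Whether arrays of the same number belong together was not tested.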

Additional observations from a re-analysis of the deposited data

How the results depend on the processing

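The sign of the difference of Rgs1, Rgs2, Rgs3, Rgs12, Rgs14 and Rgs18 was kept under all alternatives run, 15 for Rgs1 and Rgs3 and 16 for the others, that of Rgs16 in 15 of 16 and that of Rgs19 in 13 of 16. Several of these alternatives cannot change a difference: the dim gene filter, the intensity trend, the replicate block and the threshold of 0.1. For a gene with 1 probe the other probe summaries cannot change it either. The sign was therefore fixed in advance in part of these counts. The number of members past the threshold was 2, a count from which, as above, nothing is read. It was 1 with dim genes left out (Rgs1 was not tested there), 0 with the mast cell covariate, and 3 after repeated quantile normalization or with array weights, where Rgs3 was added. Over all genes the higher and lower counts (159 and 223) were 364 and 791 with dim genes left out, 314 and 692 with arrays centred on medians, 369 and 334 after repeated quantile normalization, 366 and 821 with an intensity trend, 763 and 1082 with array weights, 69 and 48 with the mast cell covariate and 401 and 833 at a threshold of 0.1. Higher genes were 41.6% of calls, and 31.2% and 52.5% under the 2 other scalings. Over all alternatives this share ran from 30.8% (intensity trend) to 74.9% (without control 1, with 188 higher and 63 lower). Control 1 had the highest array median (7.81) and the lowest array weight (0.322). Without any other 1 array the share was 46.4% to 63.3%, and with the mast cell covariate 59%. Without 1 array the higher calls were 31 to 188, the lower 18 to 111, members called 0 to 1, other Rgs genes 0, RGS-homology genes 0, G alpha 0 to 1, beta and gamma 0, other regulators 0, receptors 0 to 5 and effectors 0 to 3, with differences of -0.90 to -0.76 for Spry1 and -1.14 to -0.99 for Spry2.

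With the replicate block 296 genes were higher and 285 lower, receptors called were 7 and other Rgs genes 0 (Rgs8 had an adjusted p of 0.0535). Control 3 did not correlate best with the array of its own number. With the mast cell covariate other Rgs genes called were 0, beta and gamma genes 1, other regulators 0, receptors 1 and effectors 1, and Spry1 was at -0.77 (adjusted p = 0.0605). RGS-homology genes called were 1 with dim genes left out or array weights, and beta and gamma genes 1 after quantile normalization or with array weights. Receptors called were 7 with centred arrays, an intensity trend or the threshold of 0.1, and 8 with array weights. Effectors called were 5 with dim genes left out, centred arrays or the threshold of 0.1, 6 after quantile normalization or with an intensity trend, and 9 with array weights. The cause of these changes was not tested.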
